A study of Mus musculus with 8 samples.

Results

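Chil1, Chil3, Retnla, Retnlg, Arg1, Saa3 and Lcn2 encode chitinase-like proteins, resistin-like proteins, an arginase and acute-phase proteins, and they are 7 of the 19938 genes that a probe set with a single gene symbol measured on these arrays. They were chosen by symbol as secreted or activation-linked products of monocytes and macrophages with large differences between these same arrays, so their levels are described here and not tested. Expression was measured with Affymetrix arrays in phagocytes sorted from mouse colon and spleen, with 8 groups and 1 array in each. All mice were C57BL/6 and Cx3cr1gfp/+, that is, in every group 1 copy of the fractalkine receptor gene was replaced by a green fluorescent protein. The colitis groups were taken on day 4 of dextran sodium sulphate (DSS) treatment, which injures the colonic epithelium. They were colonic CX3CR1int Ly6Chi cells, colonic CX3CR1int Ly6Clo cells, colonic CX3CR1hi F4/80hi macrophages and splenic Ly6Chi monocytes, all labelled male. The steady-state groups were colonic CX3CR1hi F4/80hi macrophages, labelled male, and 3 groups labelled female, namely colonic CX3CR1hi macrophages reconstituted from monocytes, colonic CX3CR1hi resident macrophages and splenic Ly6Chi monocytes. The labels give neither ages, nor the number of mice behind an array, nor how reconstitution was done.

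The 7 proteins belong to different families that monocytes, macrophages, neutrophils and injured epithelium make. Chil1 and Chil3 resemble chitinases and bind sugars without cutting chitin. Retnla and Retnlg belong to the small cysteine-rich resistin family. Arg1 is the cytosolic arginase, which turns arginine into ornithine and urea and competes for substrate with the nitric oxide synthase Nos2. Saa3 is a serum amyloid A made outside the liver, and Lcn2 (lipocalin 2) withholds iron from bacteria by binding their siderophores. In mouse macrophages Arg1, Retnla and Chil3 are widely used as markers of alternative activation by interleukins 4 and 13 through STAT6, whereas Saa3 and Lcn2 are acute-phase genes that respond to interleukins 1 and 6. These 3 alternative activation markers did not share 1 pattern over the arrays.

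RefSeq promoter sequence (GRCm38.p6) was at hand for 6 of the 7 genes, as 250 bases before and 50 after each start. Close relatives are shown because their levels parted widely. The first set is the stretch just before the start of Chil3 (chr3:106167565-106167684, minus strand) and the aligned stretch of its close relative Chil4 (chr3:106219508-106219628, minus strand). Capitals mark bases that differ or have no partner in the alignment, 13 in Chil3 and 14 in Chil4.
Chil3 promoter: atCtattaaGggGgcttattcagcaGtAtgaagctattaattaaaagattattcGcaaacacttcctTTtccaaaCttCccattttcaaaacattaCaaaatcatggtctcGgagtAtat
Chil4 promoter: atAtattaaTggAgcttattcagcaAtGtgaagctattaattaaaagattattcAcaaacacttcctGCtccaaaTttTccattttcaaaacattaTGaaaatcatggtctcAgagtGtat
Over 272 aligned columns of the 2 windows, 92.3% were identical.

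Retnla and Retnlg both lie on chromosome 16, and 78.1% of 228 aligned columns of their windows were identical. Aligned stretches of Retnla (chr16:48842436-48842535, plus strand) and Retnlg (chr16:48872508-48872607, plus strand) are shown. Capitals mark TTC and GAA with any 4 bases between them, the spacing that STAT6 prefers.
Retnla promoter: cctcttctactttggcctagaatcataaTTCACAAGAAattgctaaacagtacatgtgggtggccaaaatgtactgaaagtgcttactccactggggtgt
Retnlg promoter: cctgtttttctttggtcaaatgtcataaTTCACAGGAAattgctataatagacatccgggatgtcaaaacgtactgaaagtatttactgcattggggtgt
The match began 145 bases before the annotated start of Retnla and 72 before that of Retnlg. Searched on both strands in the 250 bases before each start, this motif occurred in 5.85% of 32851 promoters. Of the 6 genes it occurred in Retnla, Retnlg and Lcn2.

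The acute-phase genes are shown for the letters TTGCNNAA, a form of the site bound by C/EBP factors, which 9.56% of promoters held on either strand. Capitals mark it in Saa3 (chr7:46715717-46715796, minus strand), 99 bases before the start. In Lcn2 (chr2:32387875-32387964, minus strand) capitals mark it 216 bases before the start, and the STAT6 spacing 156 bases before the start.
Saa3 promoter: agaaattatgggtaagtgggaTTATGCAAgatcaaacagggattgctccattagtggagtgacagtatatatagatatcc
Lcn2 promoter: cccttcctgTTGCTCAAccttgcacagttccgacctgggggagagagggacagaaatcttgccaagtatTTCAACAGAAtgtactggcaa
TTGCNNAA was also found in Retnla, 134 bases before the start, and in Retnlg, 246 before. TTC and GAA with 3 bases between them, the tighter spacing of other STAT factors, was found in Chil3 alone of the 6, 172 bases before the start, and in 7.02% of all promoters. The relative Chil4 held this spacing too, 200 bases before its start, and TTGCNNAA 131 before, which Chil3 lacked. The Saa3 relatives Saa1 and Saa2 held TTGCNNAA 182 and 183 bases before their starts. These relatives were dim in every array, as given below. The TATA box letters TATAAA, held by 12.4% of promoters, were found among the 6 only in Retnla, 30 bases before the start. The search ended at each annotated start. In Chil4 TATAAA began 31 bases before the start, and its first letters align with those just before the Chil3 start. A match across the Chil3 start was therefore not searched for. None of these 4 motifs was in the Chil1 window, and no matches overlapped in the 6 genes. A match is a run of letters and not a measured binding site.

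Levels are deposited log2 values, in which a difference of 1 is 2-fold, and the array medians over all probe sets lay between 5.77 and 5.87. The table holds no detection calls, so a level under the median cannot be told from background signal, and a fold against such a level may be compressed. The macrophage marker genes were at or above the median in 9 of 9 in all 6 colonic arrays and the DSS splenic array, and in 7 of 9 in the steady-state splenic array. C1qa, which encodes a complement subunit of tissue macrophages, stood at 11.93 to 12.14 in the 4 CX3CR1hi arrays, 7.92 and 8.68 in the CX3CR1int Ly6Chi and Ly6Clo arrays, and 7.16 and 5.78 in the DSS and steady-state splenic arrays. Dendritic cell markers were brightest in the Ly6Clo array, where 8 of 8 were at or above the median and Flt3 stood at 11.16. The steady-state splenic array is labelled female but held both Xist (10.04) and the Y-linked Eif2s3y (10.28), whereas each other array held only the one that its label calls for. No other steady-state splenic array was available to replace it. Fewer cells that make an RNA and less RNA per cell cannot be told apart in sorted bulk samples.

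Chil1, Chil3 and Lcn2 were bright in the Ly6Chi arrays, colonic or splenic, and dim in the macrophages. Chil1 stood at 10.65 in DSS CX3CR1int Ly6Chi cells, 4.62 in DSS CX3CR1int Ly6Clo cells, 4.60 in DSS CX3CR1hi macrophages, 4.62, 4.77 and 4.50 in the steady-state F4/80hi, reconstituted and resident macrophages, 11.58 in DSS splenic monocytes and 8.05 in steady-state splenic monocytes. The 5 arrays of Ly6Clo cells and macrophages thus lay within 0.27 of one another in Chil1, all below the median, and the lowest of the Ly6Chi arrays was the steady-state spleen. In the same order Chil3 stood at 9.28, 4.60, 4.29, 4.19, 4.43, 4.22, 11.35 and 11.61. Its splenic levels differed by 0.25, and the colonic Ly6Chi level was 2.07 below the DSS spleen yet 4.68 above the colonic Ly6Clo level. At 11.61, Chil3 ranked above 97.2% of probe sets in the steady-state splenic array, against 5.38% in the resident macrophage array. Lcn2 stood at 7.99, 5.82, 5.81, 5.34, 6.25, 5.07, 9.05 and 8.49 in that order. Lcn2 was above the median in the 3 Ly6Chi arrays and, of the other 5, only in the reconstituted macrophages.

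Arg1, Saa3 and Retnlg were highest in the colonic Ly6Chi cells of colitis. Arg1 stood at 7.68 in DSS CX3CR1int Ly6Chi cells and at 4.46, 4.36, 4.72, 4.60, 4.46, 4.48 and 4.56 in the other 7 arrays, in the order used above. Those 7 arrays all lay below the median, and in the Ly6Chi array Arg1 ranked above 69.9% of probe sets. The gap of 2.96 between its highest and its second-highest level ranked 4 from the top among genes that peaked in this array. Saa3 stood at 9.40, 5.60, 6.32, 5.57, 5.61, 5.38, 7.08 and 6.58. The splenic arrays came next, and the gap to the colonic Ly6Chi cells was 2.32 from the nearer of them, the DSS spleen. Retnlg stood at 8.67, 5.84, 6.48, 5.09, 6.29, 5.22, 5.88 and 5.69, with the DSS and the reconstituted macrophages next after the Ly6Chi cells. Of the 11106 genes that reached the median in any array, 60 (0.54%) stood in the colonic Ly6Chi array at least 2-fold above each of the other 7, and these 3 genes were among them. None of the 7 genes stood out in that way in another array. The shares there were 2.19% in DSS Ly6Clo cells, 0.072% in DSS CX3CR1hi macrophages, 0.045%, 0.189% and 0.216% in the steady-state F4/80hi, reconstituted and resident macrophages, and 0.027% and 0.009% in the DSS and steady-state spleen.

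Retnla followed neither of these patterns. It stood at 8.86 in DSS CX3CR1int Ly6Clo cells and 8.79 in DSS CX3CR1hi macrophages, which lay 0.07 apart. Steady-state F4/80hi macrophages followed at 7.42, then DSS CX3CR1int Ly6Chi cells at 6.16, resident macrophages at 5.43 and reconstituted macrophages at 5.30, while splenic monocytes stood at 4.56 in colitis and 4.58 at steady state. The 3 steady-state macrophage arrays were not alike: the F4/80hi array was 1.99 above the resident array, rank 6 from the highest of 10384 genes. Past 2-fold, 0.279% of those genes lay above and 3.36% below the resident array. Retnla was the 1 member past the filter, although below the median in the resident array. The F4/80hi mice were labelled male and the resident and reconstituted mice female, so sex and preparation cannot be told apart in that difference. Over the 4 CX3CR1hi arrays Retnla spanned 3.48, against a median span of 0.38 over genes that reached the median in any array.

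**Figure D1:**
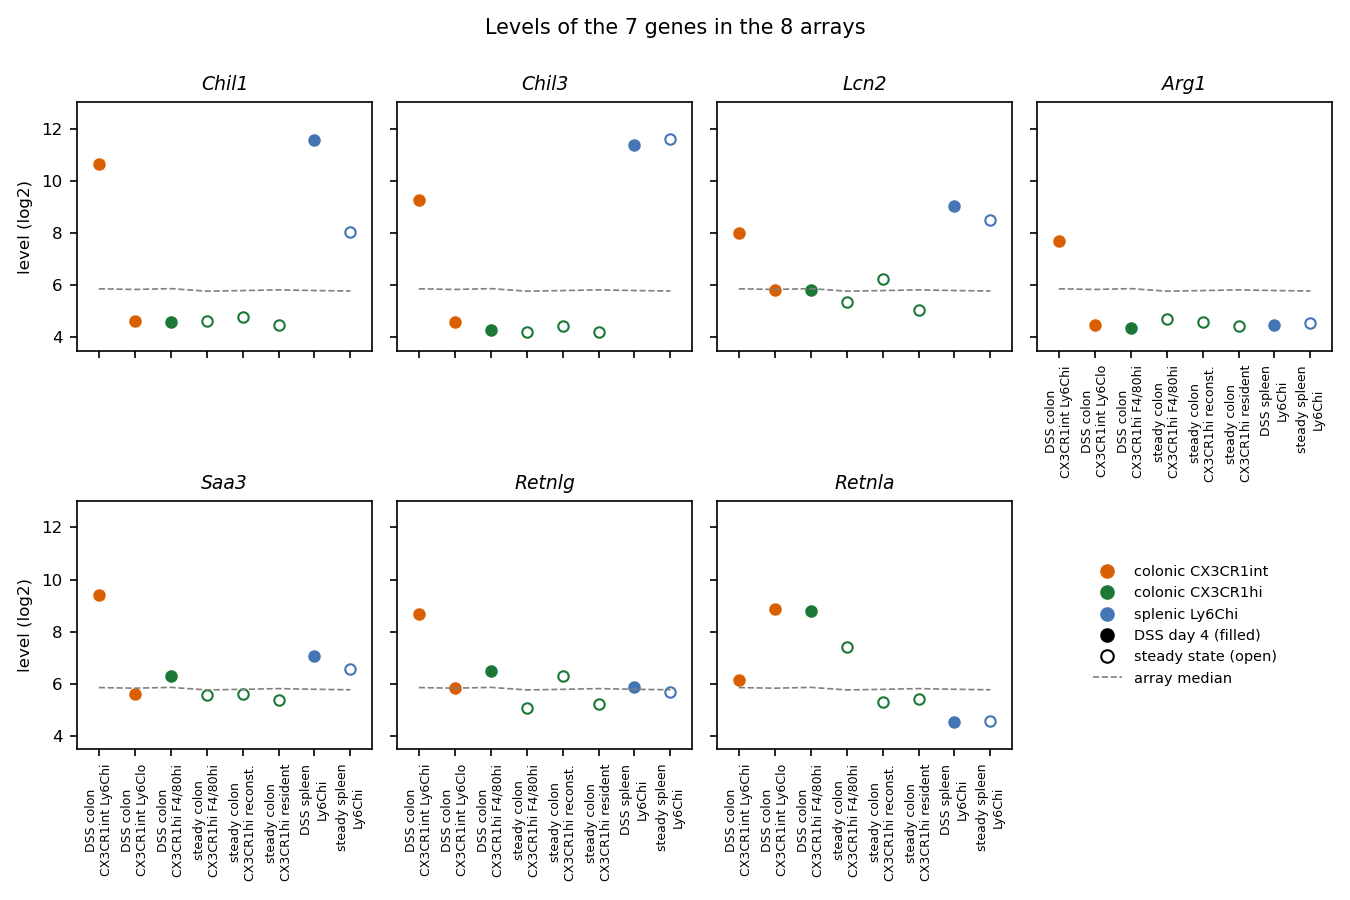
Log2 level (vertical axis) of each of the 7 genes in the 8 arrays (horizontal axis), 1 point per array, with colitis arrays filled, steady-state arrays open and the median of each array over all probe sets as a dashed line. Chil1, Chil3 and Lcn2 are high in the colonic Ly6Chi and splenic arrays, Arg1, Saa3 and Retnlg peak in the colonic Ly6Chi array, and Retnla peaks in the Ly6Clo (8.86) and DSS CX3CR1hi (8.79) arrays.

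Colonic Ly6Chi cells of colitis were set against splenic Ly6Chi monocytes of colitis to compare Ly6Chi cells of the inflamed colon with those of the spleen in the same disease. Arg1 was 3.20 higher in the colonic cells (7.68 against 4.48), Retnlg 2.79 higher (8.67 against 5.88), Saa3 2.32 higher (9.40 against 7.08) and Retnla 1.60 higher (6.16 against 4.56). Chil3 was 4.20-fold lower, Lcn2 2.08-fold lower, and Chil1 differed by -0.93. All 7 genes passed the filter, which asks that the brighter array be at or above its median. A gene that passes only through the array where it is high has its direction fixed by the filter, so counts over genes past it are descriptions. Of them 4 were at least 2-fold higher and 2 lower, against 9.79% and 3.95% of 10083 genes, but the choice of genes used these differences. Epithelial markers also separated the arrays, with a summed level of 14.39 in the colonic Ly6Chi array and 10.14 in the DSS splenic array, and their part in these differences was not tested.

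Within the colitis colon, Ly6Clo cells were set against Ly6Chi cells. Chil1 was 65.5-fold lower in the Ly6Clo array (4.62 against 10.65), rank 2 from the lowest of 10132 genes. Chil3 was 25.7-fold lower, Saa3 13.9-fold, Arg1 9.31-fold, Retnlg 7.07-fold and Lcn2 4.52-fold. Retnla alone was higher, by 2.70 (8.86 against 6.16). All 7 genes passed the filter, and 1 was higher and 6 lower by at least 2-fold, against 6.46% and 5.51% of all genes. Chil1, Chil3, Arg1, Saa3 and Lcn2 were below the median in the Ly6Clo array, so the filter fixed their direction. The genes were also chosen by such differences. Against the DSS splenic array the Ly6Clo array had Chil1 lower by 124-fold, Chil3 by 108-fold, Lcn2 by 9.42-fold and Saa3 by 2.78-fold, and Retnla 19.6-fold higher. That made 1 higher and 4 lower of 6 past the filter, against 13.2% and 9.32% of 10197 genes. Each of these called genes was below the median in its dimmer array, so its direction was fixed as well.

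Both CX3CR1int arrays were also set against the DSS CX3CR1hi macrophages. In the Ly6Chi array Chil1 (6.05), Chil3 (4.99), Arg1 (3.33), Saa3 (3.08), Retnlg (2.19) and Lcn2 (2.18) were higher and Retnla was lower (-2.63). Those were 6 higher and 1 lower of 7, against 5.33% and 9.07% of 10308 genes. Chil1, Chil3, Arg1 and Lcn2 were below the median in the macrophage array, so the filter fixed their direction. The genes were also chosen by such differences. In the Ly6Clo array none of the 3 genes past the filter was 2-fold apart, against 7.27% higher and 11.8% lower among 10396 genes. Retnla differed by 0.07, Retnlg by -0.64 and Saa3 by -0.72, and Chil1, Chil3, Arg1 and Lcn2 were below the median in both arrays. The comparisons among colitis cells share their arrays and are not independent of one another.

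Colitis was set against steady state in CX3CR1hi F4/80hi macrophages. Retnla stood at 8.79 against 7.42 and Retnlg at 6.48 against 5.09, differences of 1.37 and 1.39. Saa3 differed by 0.75 (6.32 against 5.57). These were the 3 genes past the filter, and 2 were at least 2-fold higher, against 1.23% of 10269 genes higher and 0.243% lower. Retnlg and Saa3 were below the median in the steady-state array. Stromal markers moved in the same pair, with 4 of 9 higher (median 0.91) and a summed level of 11.96 against 10.74, and their part was not tested. The values depended on which steady-state array was used. Retnla was higher by 3.36 against the resident array and by 3.48 against the reconstituted array. Retnlg was higher by 1.26 against the resident array but differed by 0.19 from the reconstituted array, so that it was no longer 2-fold apart.

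Splenic Ly6Chi monocytes of colitis differed from those at steady state in Chil1. It stood at 11.58 against 8.05, an 11.5-fold difference that ranked 3 from the highest of 9469 genes, of which 0.686% were at least 2-fold higher and 0.0211% lower. The other 4 genes past the filter were within 2-fold, with Lcn2 at 0.57, Saa3 at 0.50, Retnlg at 0.18 and Chil3 at -0.25. Chil1 and Chil3, both bright in splenic monocytes, therefore differed in how far their splenic levels lay apart. The steady-state array in this pair is the one whose RNA went against its sex label, and markers of other cells moved in it too. Of 7 epithelial markers past the filter 5 were higher (median 1.56), and of 6 B and plasma cell markers 3 were higher (median 0.83). Of 9 macrophage markers 2 were higher, C1qa (7.16 against 5.78) and C1qc, with a median of 0.07. The 5 epithelial markers, Cd79a and C1qa were below the median in the steady-state array, so the filter fixed their direction. The part of these in the Chil1 difference was not tested.

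Macrophages reconstituted from monocytes were set against resident macrophages at steady state. Lcn2 was 1.17 higher (6.25 against 5.07) and Retnlg 1.07 higher (6.29 against 5.22), both near the array median. Both were below the median in the resident array. These were the 2 genes past the filter, against 0.675% of 10374 genes higher and 1.09% lower. Against the F4/80hi array in place of the resident one, Retnlg was still higher by 1.20, Lcn2 differed by 0.91, and Retnla differed by -2.12. Of the neutrophil markers Mmp9, a protease stored in neutrophil granules, was higher (11.88 against 6.88). The summed level of these markers was 12.24 in the reconstituted array and 10.50 in the resident array. Mmp9 was the brightest of them in the reconstituted array, but Ly6g and Cd177 were brighter in the resident array. Cd177 stood at 8.96 against 8.94 and Ly6g at 8.32 against 9.30, and the median of the 3 markers past the filter was 0.03. The part of neutrophils in these differences was not tested. Of the 12 neutrophil markers measured, 3 were at or above the median in either array, and Ltf, Camp, Mpo and S100a9 were below it in both. In resident macrophages against splenic monocytes at steady state, Chil3 was lower by 168-fold, Chil1 by 11.7-fold, Lcn2 by 10.7-fold and Saa3 by 2.30-fold, beside 10% of 10652 genes lower and 18.4% higher. All 4 were below the median in the resident array and passed the filter only through the spleen, so their direction was fixed by it. With the reconstituted array in place of the resident one, the log2 difference of Lcn2 was -2.24 (-3.41 with the resident array), and that of Saa3 was -0.97, short of 2-fold.

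**Figure D2:**
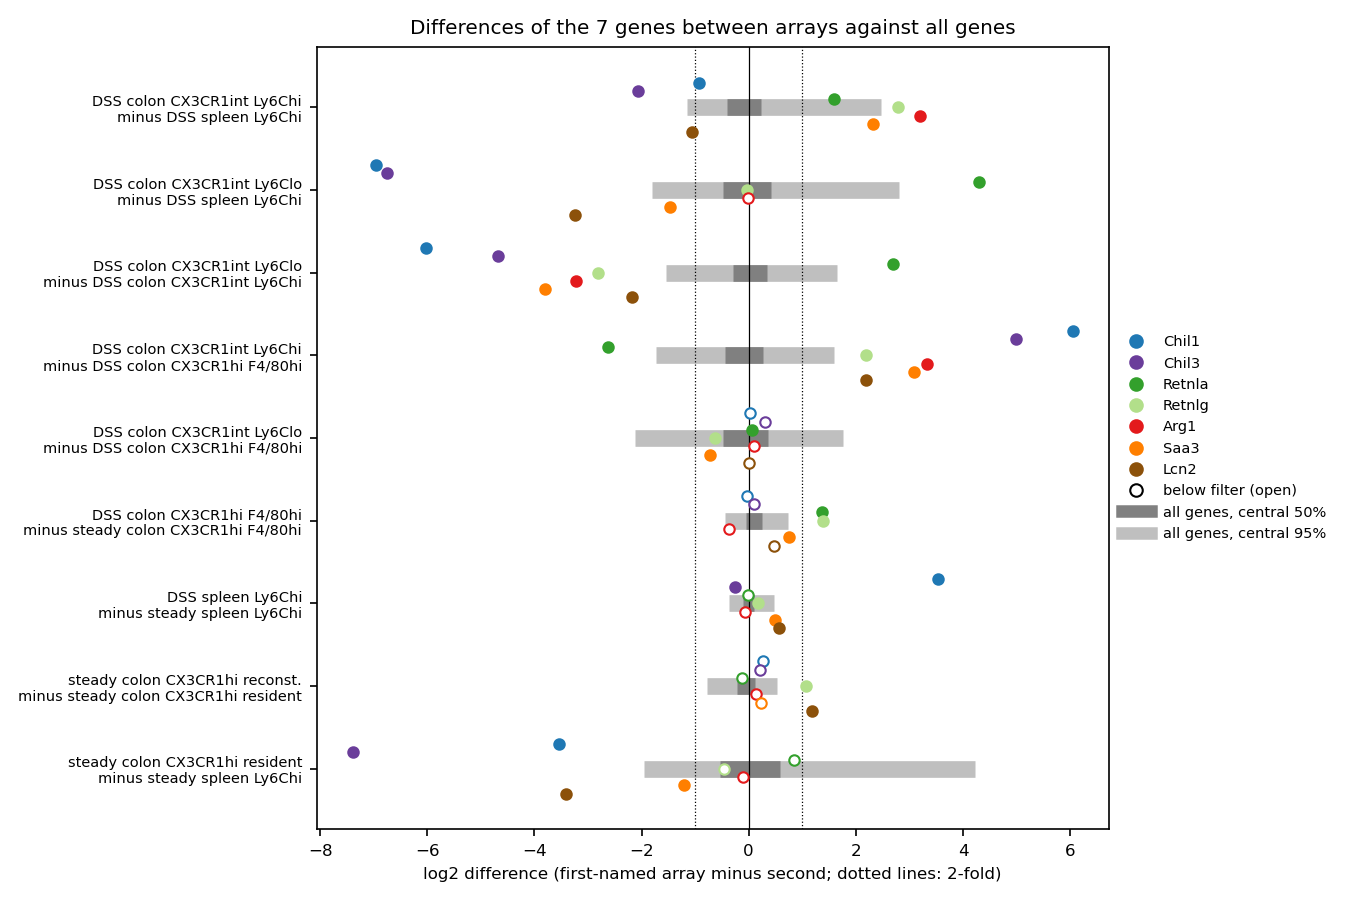
Log2 difference between arrays (horizontal axis, the first-named array minus the second) of the 7 genes in 9 comparisons (rows), with open points for genes below the brightness filter and grey bars for the central 50% and 95% of all genes past it. Chil1 and Chil3 lie farthest out wherever a Ly6Chi array meets another cell type, and Retnla lies opposite to the other 6 genes in the Ly6Clo minus Ly6Chi row (2.70).

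Relatives of the 7 genes were mostly dim. Of the 9 chitinase family genes measured, Chil1, Chil3, Chid1 and Ctbs reached the median in any array. Chil4, whose promoter is nearly that of Chil3, lay between 4.23 and 4.56. The true chitinases Chit1 (4.03 to 4.32) and Chia1 (4.02 to 4.29) were below the median in all 8 arrays. Chil3 and Chil4 are close copies whose probes could cross-hybridise, which was not tested. The Chil4 signal stayed flat in the arrays where Chil3 was bright. Chid1 (6.85 to 7.93) and Ctbs (7.56 to 8.57) each spanned about 2-fold and were highest in the spleen.

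Among resistins, Retn, which in mice is mainly a fat cell product, lay between 4.49 and 4.96. Retnlb, a goblet cell product, stood at 6.84 in DSS Ly6Chi cells, 4.83 in DSS Ly6Clo cells, 7.83 in DSS CX3CR1hi macrophages, 8.73, 7.45 and 9.56 in the steady-state F4/80hi, reconstituted and resident macrophages, and 4.42 and 4.04 in the DSS and steady-state spleen. Epithelial markers also were high in the colon, with a summed level of 14.16 to 15.94 in the 6 colonic arrays and 10.14 and 9.09 in the DSS and steady-state splenic arrays, and Muc2, the goblet cell mucin gene, stood at 10.89 to 12.84 in the colon. The part of epithelial RNA in the colonic levels of Retnlb and Retnla was not tested.

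Most acute-phase genes were dim. Of 25 measured, 9 reached the median in any array, and Saa1 (4.22 to 5.03) and Saa2 (4.42 to 4.83) did not. Hp, which encodes the haemoglobin scavenger haptoglobin, stood at 10.62 in DSS Ly6Chi cells, 4.78 in DSS Ly6Clo cells, 4.18 to 4.53 in the 4 CX3CR1hi arrays, and 11.18 and 10.99 in the DSS and steady-state spleen. Hp was thus high in the same 3 arrays as Chil3 and Lcn2, as was Lbp, the lipopolysaccharide binding protein gene, at 7.74, 7.91 and 7.62 in DSS Ly6Chi, DSS splenic and steady-state splenic cells. Cp, the copper carrier ceruloplasmin, was instead brightest in macrophages (8.82 to 9.86 in CX3CR1hi arrays). Serpina3n, a protease inhibitor, stood at 9.92 in DSS Ly6Chi cells and 9.24 in DSS CX3CR1hi macrophages, against 6.71, 8.30 and 7.66 in steady-state F4/80hi, reconstituted and resident macrophages and 5.53 in the DSS spleen. The metallothionein genes Mt1 and Mt2, which bind metals, were higher in every colonic array (10.40 to 11.34 and 10.70 to 12.47) than in the DSS spleen (8.61 and 7.43) or the steady-state spleen (7.66 and 5.44). Between Ly6Clo and Ly6Chi cells of the colon, 6 of the 9 acute-phase genes past the filter were lower and none higher, against 5.51% and 6.46% of all genes (median -1.36, against 0.01 over all genes). Between colonic and splenic Ly6Chi cells of colitis 5 of 9 were higher and 1 lower, against 9.79% and 3.95% of all genes, with a median of 2.02 against -0.13. Both counts include Saa3 and Lcn2, which were chosen for such differences. Saa3, Lcn2 and Hp were below the median in the Ly6Clo array, and Serpina3n in the DSS spleen, so the filter fixed their direction there.

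**Figure D3:**
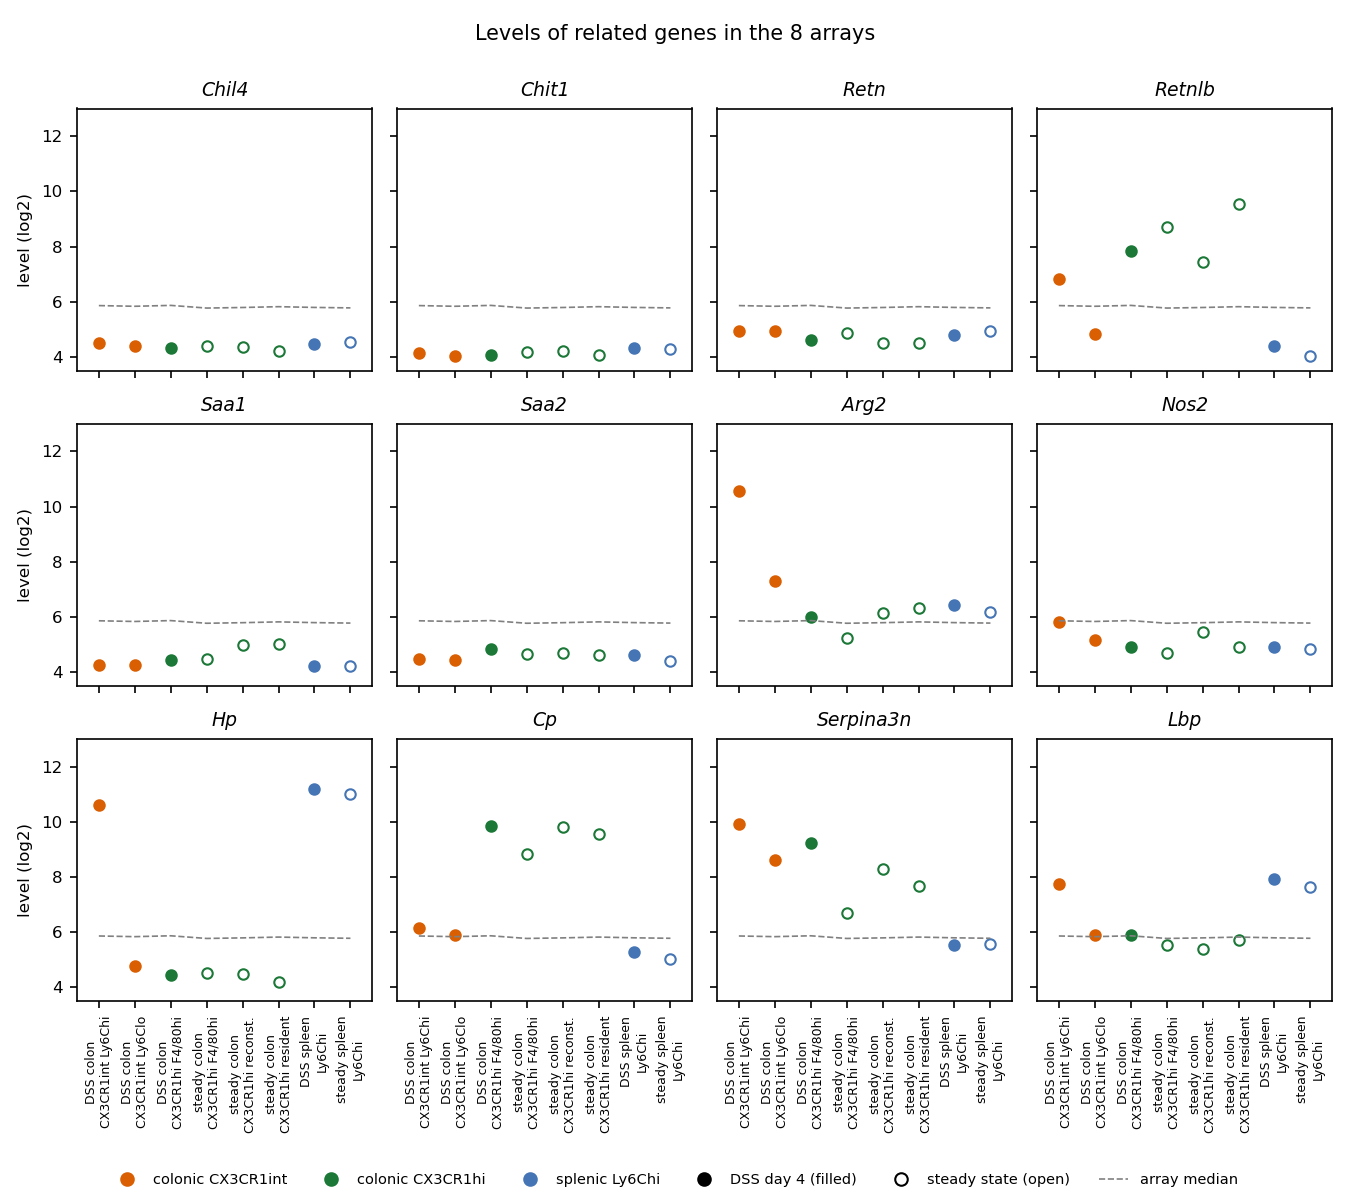
Log2 level (vertical axis) of 12 related genes in the 8 arrays (horizontal axis), drawn as in the plot of the 7 genes. Chil4, Chit1, Retn, Saa1 and Saa2 stay below the array median throughout, Arg2 peaks in the colonic Ly6Chi array (10.55), and Hp is high in the same 3 Ly6Chi arrays as Chil3.

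Arginine metabolism was read from 12 measured genes. Arg2, the mitochondrial arginase, stood at 10.55 in DSS Ly6Chi cells, 7.29 in DSS Ly6Clo cells, 6.00 in DSS CX3CR1hi macrophages, 5.23, 6.13 and 6.33 in the steady-state F4/80hi, reconstituted and resident macrophages, and 6.43 and 6.19 in the DSS and steady-state spleen. Both arginase genes therefore peaked in the colonic Ly6Chi array. Nos2 stayed below the median in all 8 arrays (4.69 to 5.80), so its levels have no order. Slc7a2, a transporter that carries arginine into macrophages, stood at 5.90 in the colonic Ly6Chi cells and 6.06 in reconstituted macrophages, and was below the median elsewhere. Against the DSS spleen the colonic Ly6Chi array had 5 of 10 genes higher and none lower (Arg1, Arg2, Slc7a2, Odc1 and Gatm), against 9.79% and 3.95% of all genes, with a median of 0.96 against -0.13. Arg1 among them was chosen for such differences. Arg1 and Slc7a2 were below the median in the DSS spleen, so the filter fixed their direction. Odc1, which starts polyamine synthesis from ornithine, stood at 9.49 against 7.88 there, but was also high in every macrophage array (9.85 to 10.70).

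Interleukin 6 and 1 signalling genes were higher in 8 of 16 between colonic and splenic Ly6Chi cells of colitis, and none was lower, against 9.79% and 3.95% of all genes (median 0.97, against -0.13 over all genes). Il6 stood at 8.78 against 4.80, Il1a at 10.54 against 4.93, Osm, an interleukin 6 family cytokine, at 11.39 against 7.74, and Socs3, a feedback inhibitor downstream of it, at 11.06 against 9.11. Il6, Il1a and Osmr were below the median in the DSS spleen, so the filter fixed their direction. Against the DSS CX3CR1hi macrophages 3 of the 16 (Il6, Il1rap and Jak2) were higher in Ly6Chi cells, and 1, Tnf, was lower (8.91 against 10.14). Over all genes 5.33% were higher and 9.07% lower there. Il6 was below the median in the macrophage array, so its direction was fixed by the filter. Of the C/EBP and partner factors, Cebpb was brightest in the colonic Ly6Chi array, at 10.93 against 9.68 in the DSS spleen, 8.16 in Ly6Clo cells and 9.26 in DSS CX3CR1hi macrophages. Cebpa was lower in Ly6Chi cells than in DSS CX3CR1hi macrophages (8.37 against 9.98) or the DSS spleen (9.51). Hif1a, the oxygen-sensing factor, stood at 12.35 in Ly6Chi cells and between 10.83 and 11.62 in the other 7 arrays.

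Of the 5 genes of interleukin 4 and 13 signalling past the filter, at most 1 was 2-fold apart in the comparisons other than that of resident macrophages with the spleen. There Il4ra was higher (11.30 against 10.25), and Il13ra1, a receptor chain for both cytokines (11.12 against 12.16), and the kinase gene Tyk2 (8.86 against 10.03) were lower. Over all genes 18.4% were higher and 10% lower in resident macrophages than in the spleen. Il13ra1 was also lower in DSS Ly6Clo cells than in the DSS spleen (11.00 against 12.17), a comparison with 13.2% of all genes higher and 9.32% lower. Il4ra was 1.18 higher in colonic Ly6Chi cells than in the DSS spleen (11.81 against 10.63), against 9.79% of all genes higher and 3.95% lower. In the other colonic arrays Il4ra lay between 11.07 and 11.55. Stat6 spanned 0.77 over all 8 arrays, from 10.01 to 10.78, and Il4 and Il13 themselves were below the median everywhere. Among 25 genes of alternative activation, Ly6Clo cells had 7 higher and 6 lower of 22 than Ly6Chi cells, against 6.46% and 5.51% of all genes (median -0.14, against 0.01). These counts include Arg1, Retnla and Chil3. Arg1, Chil3, Ccl24 and Alox15 were below the median in the Ly6Clo array and Ccl22 in the Ly6Chi array, so the filter fixed their direction. Higher with Retnla were the chemokine genes Ccl17 (10.88 against 6.69) and Ccl22 (10.69 against 5.68), the lectin genes Clec10a and Mgl2, the checkpoint ligand gene Pdcd1lg2 and Irf4. Lower with Arg1 and Chil3 were Alox15, a lipoxygenase, the scavenger receptor gene Msr1, Ccl24 and Fn1, fibronectin (9.65 against 12.18). Dendritic cell markers moved with the first set: their summed level was 13.36 in Ly6Clo cells and 11.23 in Ly6Chi cells, and Ccr7 stood at 11.66 against 9.21. Their part in these differences was not tested. Mrc1, the mannose receptor, was instead brightest in the CX3CR1hi arrays (11.85 to 12.39), which differed widely in Retnla.

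**Figure D4:**
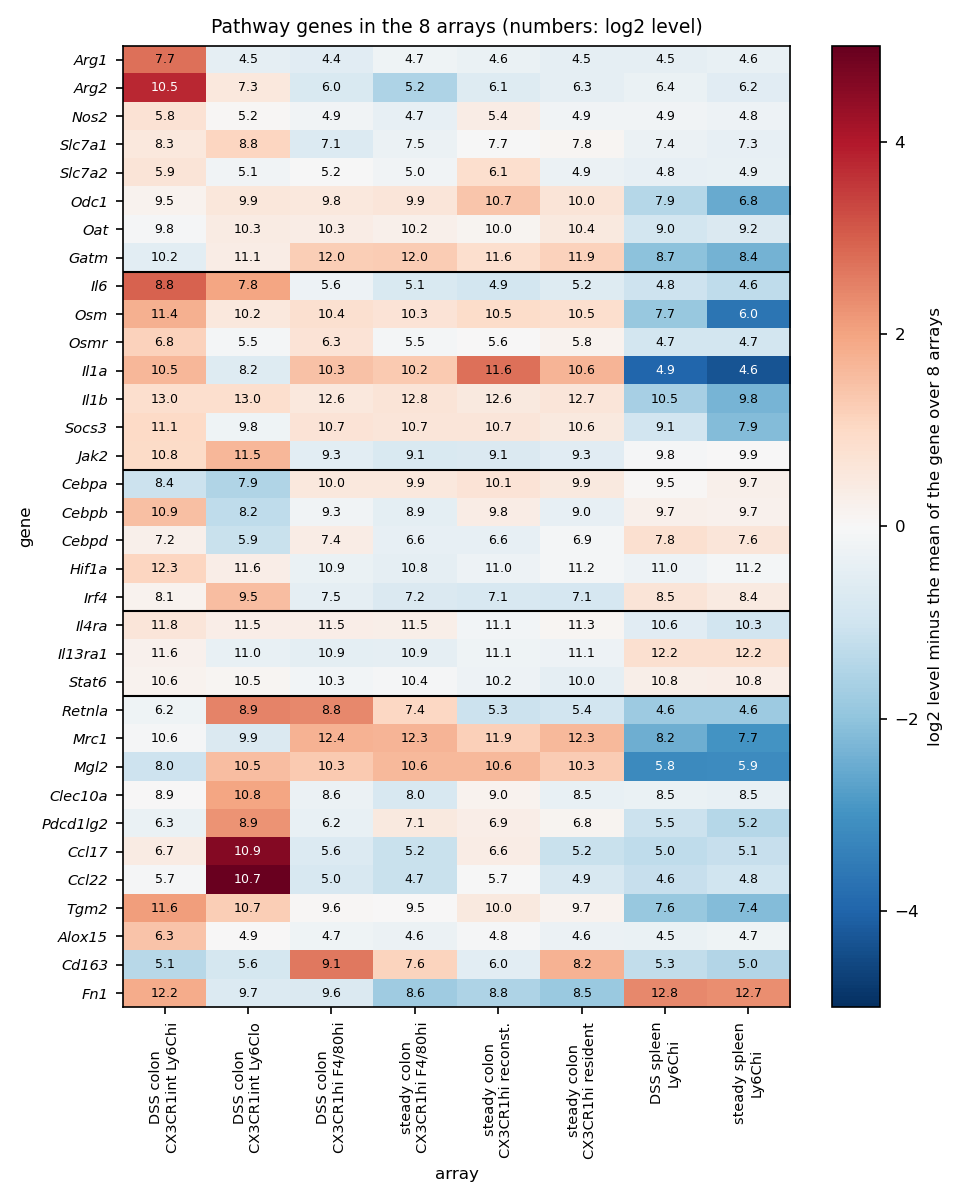
Log2 levels (numbers in the cells) of genes of arginine metabolism, interleukin 6 and 1 signalling, C/EBP and partner factors, interleukin 4 and 13 signalling and alternative activation (rows, in that order from top to bottom, with lines between) in the 8 arrays (columns), coloured by the difference from the mean of each gene over the 8 arrays. Arg1, Arg2, Il6 and Cebpb are highest in the colonic Ly6Chi column, and Retnla, Ccl17, Ccl22 and Pdcd1lg2 are highest in the Ly6Clo column.

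Receptors and partners of the 7 proteins were also measured where a probe set allowed. Tlr2 and Tlr4, through which serum amyloid A is reported to act, stood at 10.70 and 9.48 in DSS Ly6Chi cells, against 9.64 and 9.05 in the DSS spleen. In Ly6Clo cells Tlr4 was lower, at 7.35. The scavenger receptor gene Cd36 stood at 7.68 in DSS Ly6Chi cells, 9.03 in DSS Ly6Clo cells and 11.33 in DSS CX3CR1hi macrophages, against 8.47 in the DSS spleen. Slc22a17, a lipocalin 2 receptor, lay between 5.11 and 6.31. Tmem219 and Il13ra2, which bind Chil1 together, lay at 7.87 to 9.32 and, below the median, at 4.61 to 4.90. Cap1, a resistin receptor known from human monocytes, was bright in all arrays (11.81 to 12.61). Of 9 such genes past the filter, 1 was at least 2-fold higher (Tlr2) and 1 lower (Scarb1) in colonic than in splenic Ly6Chi cells of colitis, a share of higher genes near the 9.79% over all genes (3.95% lower).

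The likeness of patterns is given as Pearson's r of log2 levels over the 8 arrays, a description of points that share 3 populations. Among the 7 genes, Chil3 and Lcn2 (0.97), Chil1 and Lcn2 (0.93) and Chil1 and Chil3 (0.90) ran closest. Arg1, Saa3 and Retnlg formed a second set, with r of 0.88 for each of their 3 pairings. Arg1 was below the median in all arrays but the colonic Ly6Chi array, so its r values rest on that array. The sets overlapped, since Saa3 had r of 0.81 with Chil1, 0.67 with Lcn2 and 0.63 with Chil3. Arg1 and Retnlg had r of 0.28 to 0.53 with the first set. Retnla had r of -0.64 with Chil3, -0.60 with Lcn2, -0.55 with Chil1, -0.21 with Saa3, -0.08 with Arg1 and 0.03 with Retnlg. Over all genes with a span of at least 1 and a level at or above the median in at least 2 arrays, Chil3 was nearest to Arhgef37 (r = 0.999), Tnfrsf1b, the second tumour necrosis factor receptor, and Mmp8, the neutrophil collagenase. Lcn2 was nearest to Tmem154, Trem3 and Capg (0.99 to 0.985), and Chil1 to Plppr3, Auh and Ern1 (0.98 to 0.96). The nearest to Arg1 was Smox, which oxidises the polyamine spermine (r = 0.985), followed by Sh2b2 and Ankrd37 (0.96 each). Saa3 was nearest to Slc25a28, Igfbp6 and Ccr3 (0.985 to 0.97). Retnlg had Slc12a4, Gimap4 and Zswim4 (0.93 to 0.92) and Retnla the chaperone gene Hsph1 (0.96), Slamf7 (0.93) and Klra3 (0.91).

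Markers of other cells that make these proteins were checked as whole lists. Neutrophils store Lcn2 and Chil3 in granules, and the summed level of the 12 neutrophil markers was 10.69 in DSS Ly6Chi cells, 9.37 in DSS Ly6Clo cells, 9.51 to 12.24 in the 4 CX3CR1hi arrays, and 11.81 and 11.73 in the DSS and steady-state spleen. Mmp8 (9.22 in DSS Ly6Chi cells, 10.74 and 10.59 in the DSS and steady-state spleen, at most 4.36 elsewhere) and Cd177 made up most of it in the Ly6Chi arrays. Ltf, Camp and Mpo, which define neutrophil granules, were below the median in all 8 arrays, the highest at 5.03. S100a8 stood at 5.34 in DSS Ly6Chi cells and at 6.93 and 6.78 in the DSS and steady-state spleen. The 9 monocyte markers summed to 14.80 in DSS Ly6Chi cells, 13.29 in DSS Ly6Clo cells, 13.42 to 13.84 in the CX3CR1hi arrays, and 14.92 and 14.89 in the DSS and steady-state spleen, but they did not share 1 pattern. Vcan, a matrix proteoglycan gene, stood at 11.28 in DSS Ly6Chi cells, 10.76 and 10.46 in the DSS and steady-state spleen and 5.08 to 6.30 elsewhere. Cd14 was instead higher in the CX3CR1hi arrays (11.00 to 11.43) than in the DSS and steady-state spleen (9.45 and 8.57), and S100a4 stood at 10.37 in DSS Ly6Clo cells. Of 5 eosinophil markers, 1 at most reached the median in any array, and Prg2, Epx and Ear6 did so in none. Of 16 genes for secreted products of neutrophil granules, which include Chil3, Lcn2 and Retnlg, 8 passed the filter between colonic and splenic Ly6Chi cells of colitis, with 1 higher (Retnlg) and 5 lower (Lcn2, Chil3, Ngp, Lyz1 and Mmp8), against 9.79% and 3.95% of all genes. The 3 members among them were chosen for such differences. Ngp was below the median in the colonic array, so the filter fixed its direction. Stromal markers had sums of 11.68 in DSS Ly6Chi cells, 10.83 in DSS Ly6Clo cells, 10.40 to 11.96 in the CX3CR1hi arrays, and 8.82 and 8.84 in the DSS and steady-state spleen. B and plasma cell markers had sums of 13.48 in DSS Ly6Chi cells, 11.47 in DSS Ly6Clo cells, 11.62 to 12.96 in the CX3CR1hi arrays, and 10.40 and 9.64 in the DSS and steady-state spleen. Of 7 T and NK cell markers 1 at most reached the median in any array, and of 3 erythroid markers none did. The part of any of these cells in the levels of the 7 genes was not tested.

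**Figure D5:**
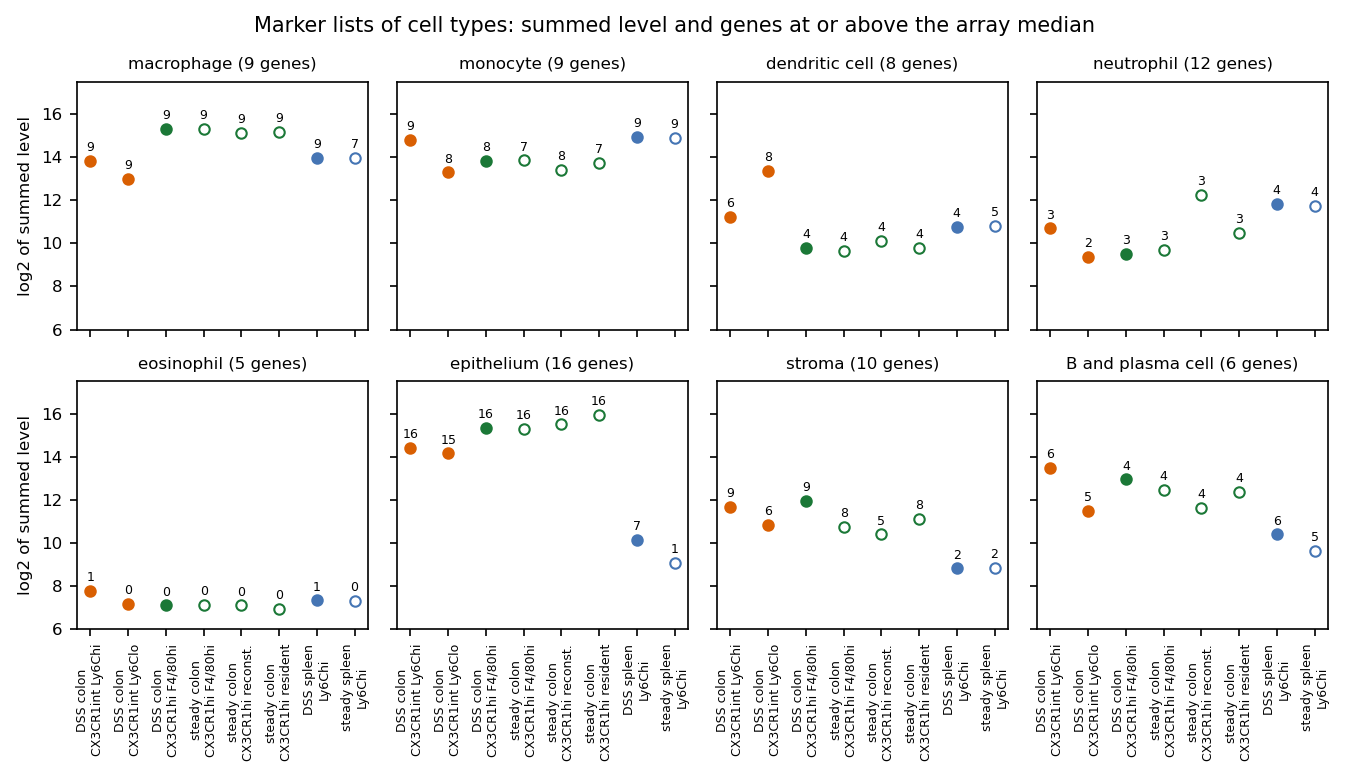
Log2 of the summed level (vertical axis) of 8 lists of cell type markers in the 8 arrays (horizontal axis), coloured and filled as in the plot of the 7 genes, with the number of list genes at or above the array median printed over each point. Epithelial sums are 14.16 to 15.94 in colonic arrays, against 10.14 and 9.09 in the DSS and steady-state spleen, and dendritic cell markers are highest in the Ly6Clo array.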

How the data were processed

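Biotin-labelled RNA of sorted cells was read on Affymetrix arrays, as the labels' protocols state. The values deposited by the authors lie between 3.37 and 14.31 and were taken as log2. The submitters' processing notes name RMA, a method that subtracts background, equalises distributions and condenses probes, and the Partek software. Their versions and settings, and a genome build, are not given in the sources used here. Depth has no counterpart on arrays, and with 1 array per group their number limits the precision, so no test was made. Of 35399 probe sets, 21789 carried 1 gene symbol in the platform annotation, 1621 several and 11989 none. A gene took its probe set with the highest mean, and each of the 7 genes had 1. Differences are log2, called at 1 where the brighter array reached its median. The members, the 20 gene lists, the 10 comparisons and the alternatives were set with earlier results of these data known. Named list genes were the relatives fixed by name and the 5 per list with the largest range, and for likeness the 3 highest correlations per gene. Other list genes given with values were chosen after these were seen. List members without a probe set of 1 symbol are not analysed here. The calling steps were tested on simulated data. Alternatives were other filters, the mean of probe sets, centring, repeated quantile normalization and other comparison arrays. Steps used Python 3.11.15, numpy 2.4.6, pandas 2.3.3, biopython 1.88 and matplotlib 3.10.9.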

Additional observations from a re-analysis of the deposited data

How the results depend on the processing

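No paired analysis was possible because each group has 1 array and the labels number no replicates, and no result has a replicate check. Centring arrays and repeating the quantile normalization moved the 70 differences of the 7 genes by at most 0.10 and 0.15, and none changed sign where it was at least 2-fold. Averaging probe sets could not move them, since each of the 7 genes had 1 probe set. Repeated quantile normalization left 1 gene, in place of 2, lower in colonic Ly6Chi cells against the DSS spleen, since Lcn2 lay close to 2-fold. It moved the median over all genes by -0.10 between colitis and steady-state CX3CR1hi macrophages. With the filter at the 75th percentile, which tests fewer genes, the members higher in colonic Ly6Chi cells against the DSS spleen numbered 2 (4 at the median), those higher in colitis macrophages 1 (2), those higher in reconstituted macrophages 0 (2), those lower in resident macrophages against the spleen 2 (4) and those higher in F4/80hi against resident macrophages 0 (1). Member counts that changed by at most 1.5 times are not listed. In the colonic Ly6Chi array Arg1 and Lcn2 ranked above 69.9% and 72.9% of probe sets and so failed this filter. Both left the genes lower in Ly6Clo than in Ly6Chi cells and those higher in Ly6Chi cells than in DSS CX3CR1hi macrophages. Saa3 ranked above 63.3% in the DSS spleen and left the genes lower in Ly6Clo cells than there. With the reconstituted array as steady state, 1 member in place of 2 was higher in colitis macrophages. With the F4/80hi array in place of the resident one, 1 was higher and 1 lower in reconstituted macrophages (2 and 0), and 1 was higher against the spleen (0). For the comparison of resident macrophages with the spleen, the replacements by the F4/80hi and by the reconstituted array were chosen after seeing the data. Counts over all genes moved by over 1.5 times in 16 of 20 cases under the 75th percentile filter. The counts higher and lower became 444 and 225 (987 and 398) in colonic Ly6Chi cells and 712 and 632 (1348 and 950) in Ly6Clo cells against the DSS spleen, and 374 and 353 (655 and 558) in Ly6Clo against Ly6Chi cells. Against DSS CX3CR1hi macrophages they became 494 and 692 (756 and 1227) in Ly6Clo cells, and 546 were lower (935) in Ly6Chi cells. They became 54 and 15 (126 and 25) in colitis macrophages, 35 and 49 (70 and 113) in reconstituted macrophages, 26 higher (65) in the DSS against the steady-state spleen, 1095 higher (1961) in resident macrophages against the spleen and 201 lower (349) in F4/80hi against resident macrophages. Other arrays gave 67 and 401 in colitis macrophages against the resident array, 202 and 171 against the reconstituted array, and 159 and 57 in reconstituted against F4/80hi macrophages. Values under the array median have no detection call, so the absence of an RNA there was not tested.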
